A study of Salvia miltiorrhiza with 5 samples.

Results

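Cytochrome P450 unigenes of families CYP72, CYP714 and CYP716 that the study listed as candidates in phenolic acid synthesis were described in hairy roots of Salvia miltiorrhiza treated with methyl jasmonate (MeJA) or yeast extract (YE). They were the 12 unigenes of that list whose annotation begins with CYP72, CYP714 or CYP716, of 55588 unigenes in all. The study had chosen its list for an RPKM change over 2-fold and for co-expression with the phenolic acid genes TAT1, HPPR1 and RAS1, so the members were selected on the RPKM values described here, and no test was made on them. Of the 12, the study tied 10 to TAT1, 2 to HPPR1 and 0 to RAS1.

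RNA was sequenced from 5 libraries, 1 per condition, of hairy roots grown for 40 days in shake flasks: MeJA for 1 h (named MeJA-1h), MeJA for 6 h (named MeJA-6h), YE for 1 h (named YE-1h), YE for 12 h (named YE-12h), and the untreated control taken at 0 h. All of the roots came from leaf sections transformed with a disarmed Agrobacterium tumefaciens strain that carries an Ri plasmid, and each library held mixed RNA of replicate cultures, so the variation between cultures was not measured. MeJA was dissolved in ethanol, and no library with the solvent alone or matched in time was analysed here, so time, handling and solvent cannot be told apart from the elicitor. The tissue label was not checked with root markers, because the unigene table pairs no marker gene with its unigenes.

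P450s are heme monooxygenases that add oxygen to small molecules, and many of the steps that decorate plant specialised metabolites are theirs. In family CYP716, Arabidopsis CYP716A1 and CYP716A2 and their Medicago relatives oxidise triterpene skeletons such as the amyrins. In family CYP72, CYP72A enzymes of licorice and Medicago act on triterpenes, and Catharanthus CYP72A1 is secologanin synthase of the terpenoid indole alkaloids. In family CYP714, Arabidopsis CYP714A1 and CYP714A2 act on gibberellins. Names such as CYP72A10 here give the closest Arabidopsis P450, as the study's table lists it, and the activity of the Salvia unigenes was not measured.

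The libraries held 13395770 to 20358510 counted reads. The deposited level is RPKM, reads scaled to unigene length and to the reads of the library. Ratios were taken between deposited RPKM values, and "called" means above 2-fold or below 0.5 of the other library. A library with at most 3 reads was set to 3 reads. The ratio to it is a lower bound on that floor, written "at least", and leaves out the counting error of the other library. The 95% intervals are exact binomial (Clopper-Pearson) intervals and cover counting error only. By RPKM the median unigene of the table stood below the control on the log2 scale, at -0.28 after 1 h and -0.24 after 6 h of MeJA and at -0.16 after 1 h and -0.17 after 12 h of YE. The ratios below are those of the deposited RPKM, without a correction for that shift. After TMM scaling, which removes most of it, the 12 ran from 1.85 to 17.6 in MeJA-1h and from 3.22 to 15.1 in MeJA-6h, and the 10 with a ratio from 0.592 to 1.42 in YE-1h and from 0.544 to 2.01 in YE-12h. Fewer cells of a type and less RNA per cell cannot be told apart in these bulk samples.

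The 12 unigenes comprised 5 of family CYP72 (4 named CYP72A10 and 1 named CYP72A15), 1 of family CYP714 (CYP714A2) and 6 of family CYP716 (4 named CYP716A1 and 2 named CYP716A2). Together they held 0.123% of all reads in MeJA-1h and 0.119% in MeJA-6h, against 0.00934% in YE-1h, 0.0161% in YE-12h and 0.0140% in the control. Both MeJA libraries were thus far above the other 3 libraries. The CYP72A10 unigenes accounted for 74.7% of these reads at 1 h and 69.9% at 6 h of MeJA, 49.6% at 1 h and 34.7% at 12 h of YE, and 51.6% in the control. The median of the 12 levels was 52.0 RPKM in MeJA-1h and 51.1 in MeJA-6h, and it was 5.78 in YE-1h, 6.74 in YE-12h and 7.19 in the control. Over all unigenes the median level was 4.11, 4.12, 4.53, 4.29 and 4.89 RPKM in the same order.

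**Figure D1:**
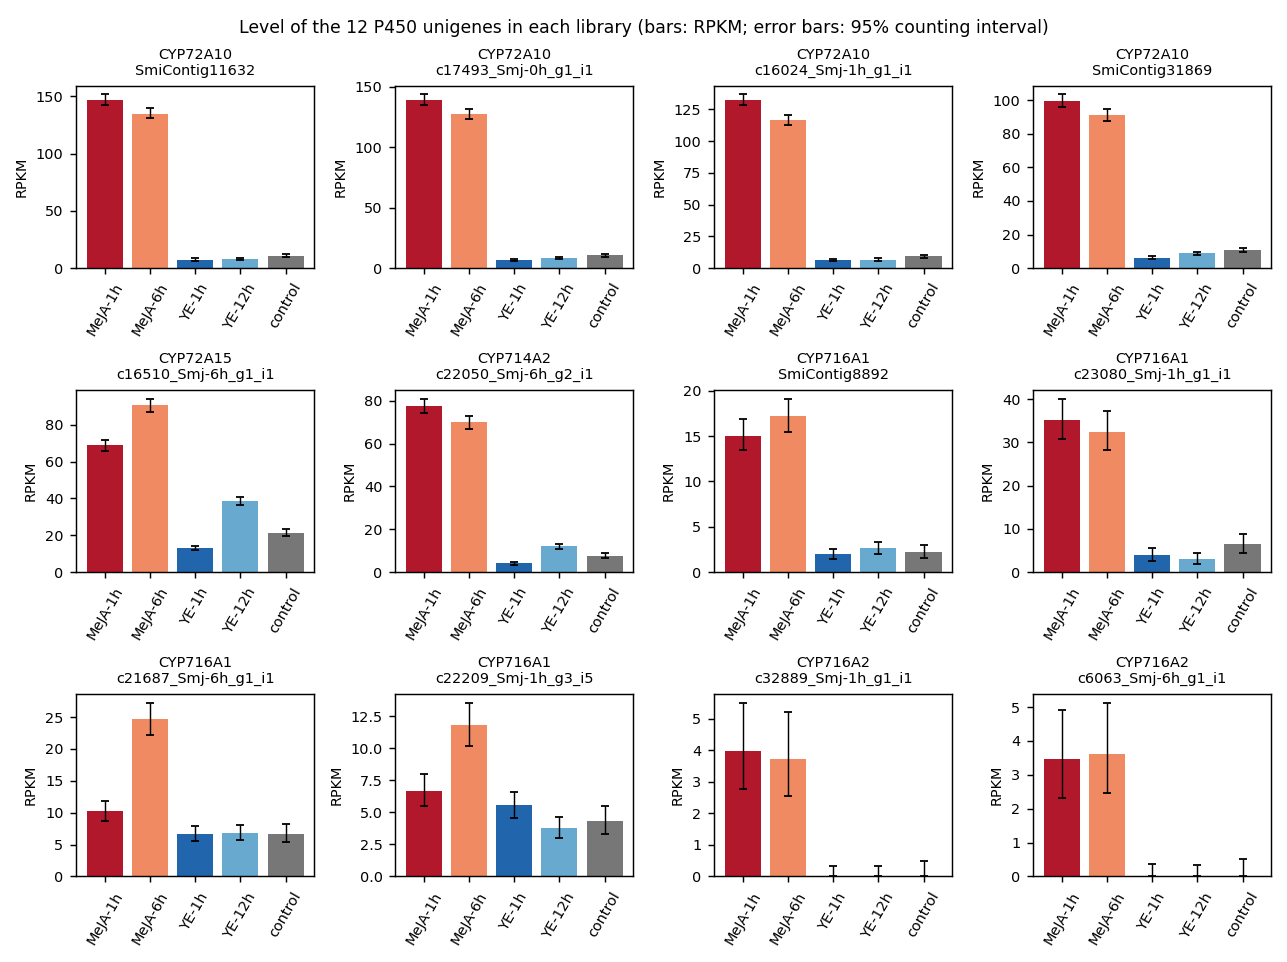
RPKM of each of the 12 P450 unigenes (y axis, linear from 0, scaled per panel) in the 2 MeJA libraries, the 2 YE libraries and the control (x axis). Bars are the deposited values of 1 library each and error bars the 95% counting interval. Both MeJA bars stand highest in every panel, and the 2 CYP716A2 unigenes are at 0 reads in YE-1h, YE-12h and the control.

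The 4 CYP72A10 unigenes had the highest levels of the group in MeJA-1h. SmiContig11632 (1710 bp, from reads and RPKM) had 147.0 RPKM at 1 h and 134.9 at 6 h of MeJA, 7.45 at 1 h and 7.67 at 12 h of YE, and 10.5 in the control, from 4040, 3643, 242, 267 and 241 reads. It was 13.9-fold above the control in MeJA-1h (12.3 to 16.0) and 12.8-fold above it in MeJA-6h (11.3 to 14.7). With YE it was at 0.707 of the control after 1 h and 0.728 after 12 h, and both intervals lay below 1.

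c17493_Smj-0h_g1_i1 (1786 bp) had 139.3 RPKM at 1 h and 127.0 at 6 h of MeJA, 6.63 at 1 h and 8.45 at 12 h of YE, and 10.5 in the control. Its ratio to the control was 13.3 in MeJA-1h (11.7 to 15.2) and 12.1 in MeJA-6h (10.7 to 13.9). c16024_Smj-1h_g1_i1 (1772 bp) had 132.5 RPKM at 1 h and 116.6 at 6 h of MeJA, 6.01 at 1 h and 6.66 at 12 h of YE, and 9.14 in the control. It had the highest MeJA-1h ratio that is not a bound, 14.5 (12.6 to 16.7), and a ratio of 12.8 in MeJA-6h (11.1 to 14.7). Both unigenes followed SmiContig11632 closely, with the 2 MeJA libraries high and the YE libraries a little below the control. For c17493_Smj-0h_g1_i1 the YE-12h interval lay below 1 (0.682 to 0.959) but included 1 after TMM scaling (0.762 to 1.07).

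SmiContig31869 (1811 bp) had 99.9 RPKM at 1 h and 91.2 at 6 h of MeJA, 6.17 at 1 h and 8.70 at 12 h of YE, and 10.9 in the control. Its ratios were 9.19 in MeJA-1h (8.12 to 10.5) and 8.40 in MeJA-6h (7.41 to 9.59), the lowest of the 4. Its YE-12h ratio was 0.801 (0.678 to 0.946), and after TMM scaling 0.895 (0.758 to 1.06). All 4 stood between the 98.0 and 98.9 percentiles of unigene level in the MeJA libraries, and between 74.5 and 79.1 in the control. Among the 40163 unigenes with at least 30 control reads, the ratios of SmiContig11632, c16024_Smj-1h_g1_i1 and c17493_Smj-0h_g1_i1 ranked 61, 59 and 65 from the top in MeJA-1h.

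The CYP72A10 unigenes may be near-identical sequences that share reads, in which case the authors' counting could split reads between them, so each single value is uncertain. Their summed reads do not depend on a split among the 4. Summed, they were 12.6-fold above the control in MeJA-1h (11.8 to 13.5) and 11.4-fold in MeJA-6h (10.7 to 12.2), and at 0.639 of it in YE-1h (0.582 to 0.700) and 0.768 in YE-12h (0.705 to 0.838). The 4 did not keep one ratio to each other. SmiContig31869 stood at 0.679 of SmiContig11632 in MeJA-1h (0.648 to 0.713) and 0.676 in MeJA-6h (0.643 to 0.711), against 0.829 in YE-1h, 1.13 in YE-12h (0.960 to 1.34) and 1.03 in the control (0.862 to 1.23). c16024_Smj-1h_g1_i1 stayed between 0.807 and 0.902 of SmiContig11632, and c17493_Smj-0h_g1_i1 between 0.890 and 1.10. The ratio of SmiContig31869 was therefore lower in both MeJA libraries than in the control by more than counting error, and whether reads were shared differently between the libraries was not tested.

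**Figure D2:**
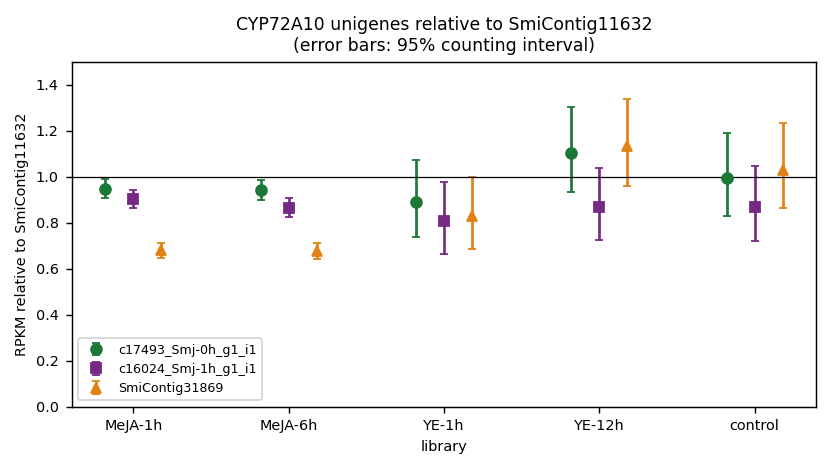
RPKM of 3 CYP72A10 unigenes relative to that of SmiContig11632 (y axis) in each library (x axis), with 95% counting intervals. SmiContig31869 sits at 0.679 and 0.676 in the MeJA libraries and at 1.03 in the control, while the other two lie between 0.807 and 1.10.

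The CYP72A15 unigene, c16510_Smj-6h_g1_i1 (1790 bp), had 68.7 RPKM at 1 h and 90.5 at 6 h of MeJA, 13.2 at 1 h and 38.6 at 12 h of YE, and 21.4 in the control, from 1976, 2559, 451, 1406 and 514 reads. It was the most abundant of the 12 in the control, in YE-1h and in YE-12h, and in the control it was 1.97-fold above the next (1.70 to 2.30). Its ratio to the control was 3.21 in MeJA-1h (2.91 to 3.54) and 4.22 in MeJA-6h (3.84 to 4.65). With YE it was at 0.617 of the control after 1 h (0.542 to 0.701) and 1.80-fold above it after 12 h (1.63 to 2.00). It thus lay on opposite sides of the control at the 2 YE times, and after TMM scaling its YE-12h ratio was 2.01, just past 2-fold.

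The CYP714A2 unigene, c22050_Smj-6h_g2_i1 (1704 bp), had 77.6 RPKM at 1 h and 69.8 at 6 h of MeJA, 4.11 at 1 h and 12.1 at 12 h of YE, and 7.68 in the control, from 2125, 1879, 133, 419 and 175 reads. It was 10.1-fold above the control in MeJA-1h (8.67 to 11.9) and 9.09-fold in MeJA-6h (7.80 to 10.7). The YE libraries lay on both sides of the control, at 0.535 after 1 h (0.423 to 0.673) and 1.57 after 12 h (1.32 to 1.89). By its component name, which marks transcripts that Trinity assembled from 1 cluster of reads, it shared c22050_Smj-6h with g1_i2, g3_i1 and g4_i1. These 3 had MeJA-1h ratios of 0.853, 0.949 and 0.951 and MeJA-6h ratios of 0.749, 0.828 and 0.856, so the high MeJA level was not seen in them.

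The 4 CYP716A1 unigenes differed from each other in both level and time. SmiContig8892 (1304 bp) had 15.1 RPKM at 1 h and 17.2 at 6 h of MeJA, 1.97 at 1 h and 2.65 at 12 h of YE, and 2.24 in the control, from 316, 355, 49, 70 and 39 reads. Its ratios to the control were 6.73 in MeJA-1h (4.83 to 9.68) and 7.71 in MeJA-6h (5.54 to 11.0), and both YE intervals included 1.

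c23080_Smj-1h_g1_i1 is a fragment of 398 bp and rests on few reads outside MeJA. It had 35.2 RPKM at 1 h and 32.4 at 6 h of MeJA, 4.06 at 1 h and 3.14 at 12 h of YE, and 6.46 in the control, from 225, 204, 30, 25 and 34 reads. Its ratios were 5.45 in MeJA-1h (3.83 to 8.16) and 5.02 in MeJA-6h (3.53 to 7.55). In YE-12h it was at 0.487 of the control (0.277 to 0.835), the only value of the 12 below 0.5, and at 0.544 after TMM scaling. Of the 3 other unigenes of its component, c23080_Smj-1h_g6_i1 had ratios of 1.04 in MeJA-1h and 3.02 in MeJA-6h, and the others were below the control in both.

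The other two CYP716A1 unigenes were higher at 6 h than at 1 h of MeJA. c21687_Smj-6h_g1_i1 (972 bp) had 10.2 RPKM at 1 h and 24.6 at 6 h of MeJA, 6.68 at 1 h and 6.82 at 12 h of YE, and 6.69 in the control, from 159, 378, 124, 135 and 87 reads. Its ratios to the control were 1.52 in MeJA-1h (1.17 to 2.00) and 3.68 in MeJA-6h (2.91 to 4.71), with 0.999 in YE-1h, 1.10 there after TMM scaling, and 1.02 in YE-12h. c22209_Smj-1h_g3_i5 (1059 bp) had 6.68 RPKM at 1 h and 11.8 at 6 h of MeJA, 5.54 at 1 h and 3.76 at 12 h of YE, and 4.32 in the control. Its ratios were 1.55 in MeJA-1h (1.12 to 2.14) and 2.73 in MeJA-6h (2.05 to 3.71), and both YE intervals included 1, though after TMM scaling that of YE-1h did not (1.03 to 1.97). These are the only 2 of the 12 that the study tied to HPPR1, the hydroxyphenylpyruvate reductase of the tyrosine branch, and the only 2 under 2-fold in MeJA-1h. A second isoform, c22209_Smj-1h_g3_i1, had ratios of 1.68 at 1 h and 5.77 at 6 h of MeJA, and of 4.02 at 1 h and 2.08 at 12 h of YE, so in YE-1h its interval (3.19 to 5.11) lay above that of the listed isoform (0.928 to 1.78).

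The 2 CYP716A2 unigenes had reads in the MeJA libraries alone. c32889_Smj-1h_g1_i1 (563 bp) had 36 reads in MeJA-1h and 33 in MeJA-6h, or 3.98 and 3.74 RPKM, and 0 reads in YE-1h, YE-12h and the control. c6063_Smj-6h_g1_i1 (544 bp) had 30 reads in MeJA-1h and 31 in MeJA-6h, or 3.47 and 3.61 RPKM, and 0 reads in the other 3 libraries. For the ratios, 0 reads was set to a floor of 3 reads, which for these unigenes is 0.398 and 0.412 RPKM in the control. The upper 95% counting limits for 0 reads there were 0.489 and 0.506 RPKM, so transcripts below these levels may have gone unseen at this depth.

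On that floor, c32889_Smj-1h_g1_i1 was at least 10.0-fold above the control in MeJA-1h and at least 9.33-fold in MeJA-6h, and c6063_Smj-6h_g1_i1 at least 8.34-fold and at least 8.77-fold. These bounds leave out the counting error of the MeJA reads. After TMM scaling they were 12.1, 11.0, 10.1 and 10.3 in that order. The lower 95% counting limits, from the MeJA reads against 0 control reads, were then 9.36, 8.47, 7.72 and 7.92. The CYP716A2 unigenes are the only 2 unigenes of the whole table with 0 reads in these 3 libraries and at least 30 in each MeJA library, a minimum set after their counts were seen, and at a minimum of 15 reads there were 7 such unigenes.

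Across the 12, 10 were over 2-fold above the control in MeJA-1h, against 7.57% of all unigenes, and 12 of 12 in MeJA-6h, against 6.84%. No reading is made of these shares, since the same contrast chose the unigenes. The median log2 ratio, with the CYP716A2 unigenes at their bound, was 3.13 in MeJA-1h and 3.10 in MeJA-6h. With YE, 0 of the 10 with a ratio were over 2-fold in YE-1h (7.81% of all unigenes) and 0 of 10 in YE-12h (4.37%). Which libraries entered the study's co-expression is not given in the sources used here, so these counts too are given as a description. In YE-1h 0 of the 10 were below 0.5 (7.95% of all unigenes), and in YE-12h 1 of them was (7.26%). The median log2 ratio was -0.63 at 1 h and -0.25 at 12 h of YE. The median at 12 h has no stable side, since it was 0.10 with 1 unigene per annotation and 0.27 with the reads of each annotation summed.

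Of the 10 with a ratio in every comparison, 7 were over 2-fold in both MeJA libraries and between 0.5 and 2 in both YE libraries, against 1.66% of all unigenes. The 4 CYP72A10 unigenes and the CYP716A1 fragment c23080_Smj-1h_g1_i1 were above the control in both MeJA libraries and below it in both YE libraries, a pattern of 3.47% of all unigenes. All these comparisons share the 1 control library. At the lower edge of the list, the larger of the 2 MeJA ratios was 2.73 for c22209_Smj-1h_g3_i5. Of the unigenes of the same families in the study's tanshinone list, CYP72A8 c13153_Smj-1h_g1_i1 was at 1.98 and CYP72A7 c21094_Sye-12h_g1_i1 at 2.13. That list ran from 0.755 to 7.02 in this value, with 2.86, 3.38, 3.87, 4.39 and 7.02 above 2.73. The lists thus overlapped in it. The study asked for co-expression in both lists. The partners were TAT1, HPPR1 and RAS1 for the phenolic acid list, and CPS1, KSL1 and CYP76AH1 for the tanshinone list.

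**Figure D3:**
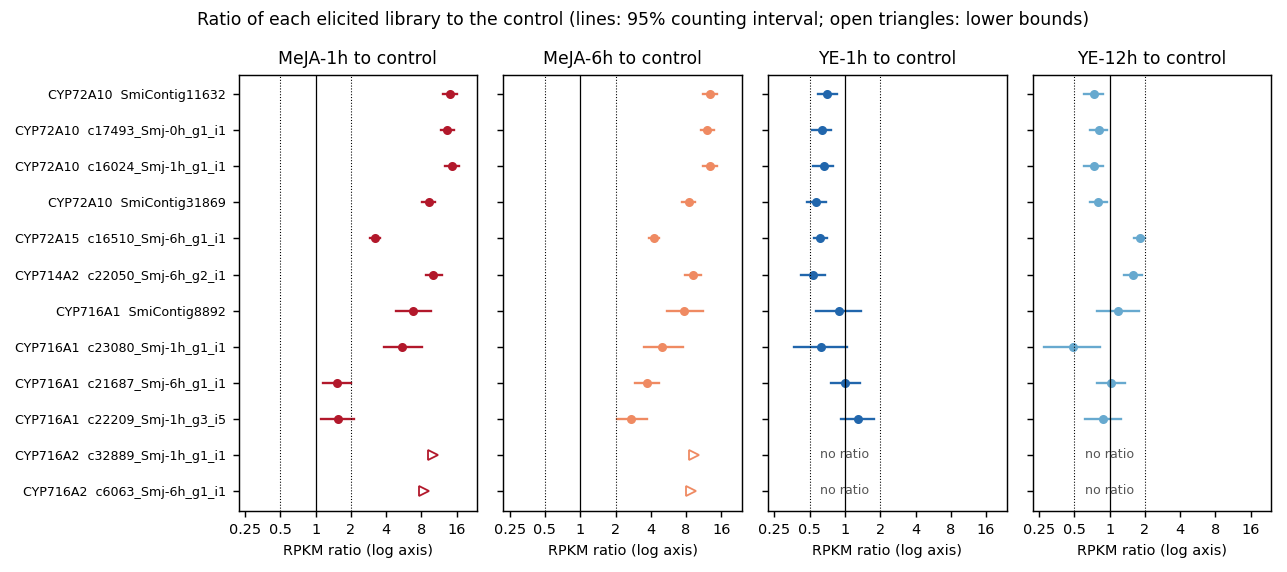
RPKM ratio of each elicited library to the control (x axis, log scale) for the 12 unigenes (rows). Points are ratios, lines the 95% counting intervals, open triangles lower bounds, and dotted lines mark 0.5 and 2. In MeJA-6h all 12 lie right of 2, and in the YE panels the ratios run from 0.487 to 1.80.

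Between the MeJA times the unigenes went both ways, and the CYP716A1 unigenes were not alike. In MeJA-6h the 4 CYP72A10 unigenes were at 0.880 to 0.918 of their MeJA-1h level and CYP714A2 at 0.900 (0.845 to 0.958), and these 5 intervals lay below 1. Above 1 were CYP72A15 at 1.32 (1.24 to 1.40), CYP716A1 c21687_Smj-6h_g1_i1 at 2.41 (2.01 to 2.93) and CYP716A1 c22209_Smj-1h_g3_i5 at 1.76 (1.40 to 2.26). The intervals of the 4 others included 1. In all, 5 of 12 were higher at 6 h than at 1 h, against 52.1% of all unigenes, 1 was over 2-fold higher, against 6.29%, and 0 were below 0.5, against 7.81%.

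Between the YE times, CYP714A2 was 2.94-fold and CYP72A15 2.92-fold higher at 12 h than at 1 h, and these 2 of 10 were over 2-fold, against 5.91% of all unigenes, while 0 were below 0.5, against 9.37%. SmiContig31869 was 1.41-fold and c17493_Smj-0h_g1_i1 1.28-fold higher at 12 h, with intervals above 1. CYP716A1 c22209_Smj-1h_g3_i5 was lower at 12 h, at 0.678 of YE-1h. With both intervals off 1, CYP72A15 was higher at the later time of both elicitors. CYP714A2, SmiContig31869 and c17493_Smj-0h_g1_i1 were lower at the later time of MeJA and higher at that of YE, and c22209_Smj-1h_g3_i5 was the reverse.

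**Figure D4:**
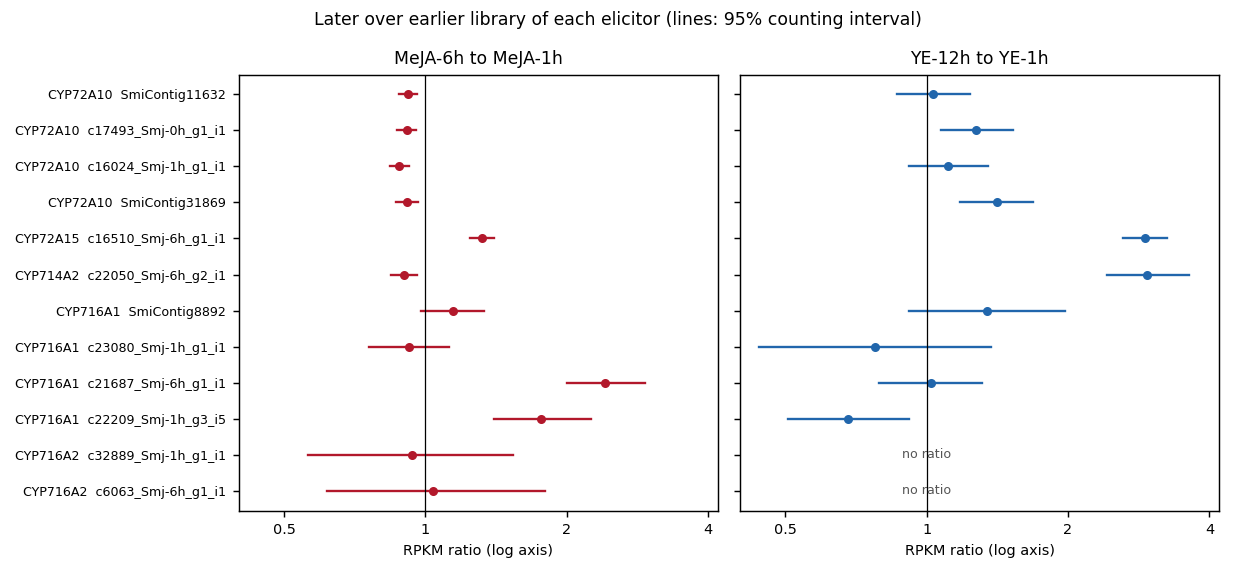
RPKM ratio of the later to the earlier library of each elicitor (x axis, log scale) for the 12 unigenes (rows), with 95% counting intervals. With MeJA the CYP72A10 unigenes lie just under 1 and c21687_Smj-6h_g1_i1 is at 2.41, and with YE the CYP72A15 and CYP714A2 unigenes lie near 2.9.

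The order of levels changed with MeJA. In MeJA-1h the order was SmiContig11632, c17493_Smj-0h_g1_i1, c16024_Smj-1h_g1_i1, SmiContig31869, CYP714A2, CYP72A15, the 4 CYP716A1 unigenes from 35.2 to 6.68 RPKM, and CYP716A2, and each neighbour in it differed by more than counting error except the 2 CYP716A2 unigenes. In MeJA-6h CYP72A15 stood next to SmiContig31869, and these 2 could not be separated (1.01, 0.954 to 1.06). In the control CYP72A15 came first, and from SmiContig31869 at 10.9 RPKM down to c22209_Smj-1h_g3_i5 at 4.32 no neighbours differed beyond counting error.

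At 1 h, the time both elicitors share, MeJA-1h was over 2-fold above YE-1h for 10 of 12, against 7.95% of all unigenes. The ratio was 16.2 to 22.1 for the CYP72A10 unigenes, 18.9 for CYP714A2, 5.19 for CYP72A15 and 8.67, 7.62, 1.53 and 1.20 for the CYP716A1 unigenes. The interval of the lowest, c22209_Smj-1h_g3_i5, included 1, and after TMM scaling it lay just above 1 (1.01 to 1.73). The CYP716A2 unigenes were at least 14.2-fold and at least 11.9-fold higher in MeJA-1h.

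The same 3 families also appear in the study's tanshinone list, with 11 unigenes, and both lists were chosen on these values, so no test was made between them. None of these 11 was higher in MeJA-1h than in YE-1h, and their MeJA-1h over YE-1h ratios ran from 0.108 to 0.622, against 1.20 to 22.1 for the 12 of the phenolic acid list. Over all unigenes, 21907 of the 55415 with a ratio were higher in MeJA-1h, and the median ratio was 0.908. Unigenes with the same closest Arabidopsis name stood in both lists. CYP72A10 SmiContig30503 had 4.96 RPKM at 1 h and 7.64 at 6 h of MeJA, 45.7 at 1 h and 9.28 at 12 h of YE, and 1.74 in the control, and so was 26.3-fold above the control in YE-1h.

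CYP716A1 c20619_Smj-6h_g1_i1 had 45.3 RPKM at 1 h and 32.9 at 6 h of MeJA, 124.5 at 1 h and 45.3 at 12 h of YE, and 6.45 in the control. Its ratios were 7.02 in MeJA-1h and 19.3 in YE-1h, so it was high with both elicitors. CYP714A1 SmiContig20596 had 3.84 RPKM at 1 h and 3.49 at 6 h of MeJA, 14.6 at 1 h and 25.9 at 12 h of YE, and 5.09 in the control. In MeJA-1h, CYP714A2 of the phenolic acid list was at 10.1 of the control and CYP714A1 of the tanshinone list at 0.755 (0.571 to 0.992). After TMM scaling CYP714A1 was at 0.914, and the median ratio of all unigenes there was 0.821 by RPKM. No fall of CYP714A1 with MeJA is read from this.

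**Figure D5:**
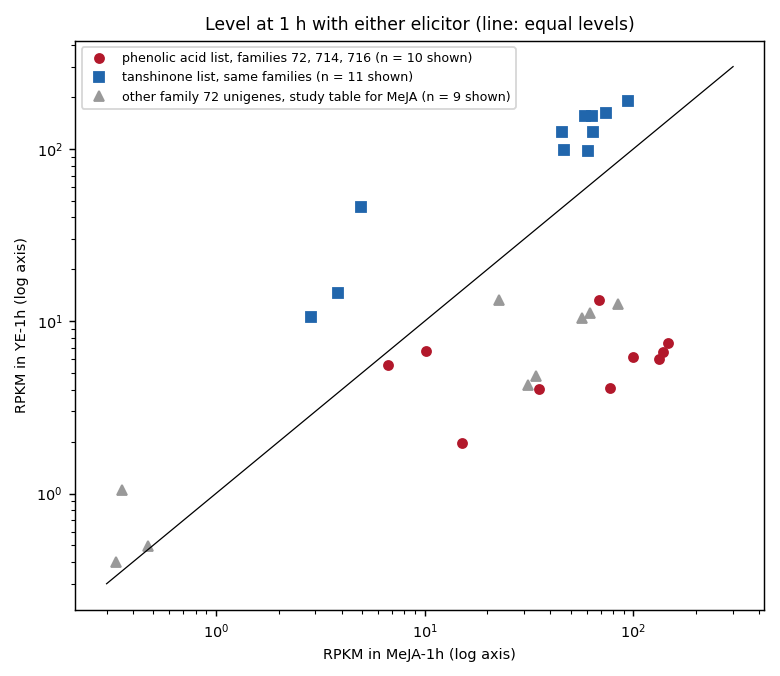
RPKM in MeJA-1h (x axis) and YE-1h (y axis), both log scales, of 10 unigenes of the phenolic acid list (circles), 11 of the tanshinone list (squares) and 9 other family 72 unigenes of a table of MeJA-raised unigenes (triangles), with the line of equal levels. The circles lie below the line and the squares above it, in lists chosen on these values, and the CYP716A2 unigenes at 0 reads in YE-1h are left out.

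Other family 72 unigenes stood in the study's table of MeJA-raised unigenes, of which a shortened copy with 9 of them was used here, and those named were chosen after their values were seen. All 9 were over 2-fold above the control in MeJA-6h (6.84% of all unigenes), and 5 of 7 with a ratio in MeJA-1h (7.57%). The study chose that table for a rise with MeJA in these data, so no reading is made of these counts. CYP72A11 c14939_Smj-6h_g1_i1 and c14939_Smj-6h_g1_i2 and CYP72C1 c15711_Sye-12h_g1_i1 had 3 reads each in MeJA-1h, and 1, 4 and 1 in the control. CYP72A10 SmiContig12510 had 31.1 RPKM at 1 h and 25.1 at 6 h of MeJA, 4.29 at 1 h and 7.08 at 12 h of YE, and 10.7 in the control, with ratios of 2.91 in MeJA-1h and 0.401 in YE-1h. It shared the order of the libraries with SmiContig11632 at a smaller MeJA ratio. CYP72A13 SmiContig21589 had 61.9, 88.4, 11.2, 58.1 and 22.5 RPKM in the same order of libraries, the shape seen for CYP72A15 c16510_Smj-6h_g1_i1, with a YE-12h ratio of 2.58.

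Against the other 14 P450 unigenes of the phenolic acid list, chosen in the same way, the 12 had the larger median ratios with MeJA. The median ratio to the control in MeJA-1h was 8.75 for the 12 and 2.31 for the 14, and in MeJA-6h 8.58 and 3.28. In MeJA-6h over MeJA-1h, 5 of the 12 and 13 of the 14 were above 1. Over 2-fold in MeJA-1h were 10 of the 12 and 8 of the 14, against 7.57% of all unigenes. In MeJA-6h 12 of the 12 and 14 of the 14 were, against 6.84%. The highest ratio was 14.5 for the 12 and 7.18 for the 14 in MeJA-1h, but 12.8 and 26.1 in MeJA-6h. The medians of the 12 include the 4 CYP72A10 unigenes, which may share reads.

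The phenolic acid pathway list held 37 unigenes, of which 26 were over 2-fold above the control at 1 h and 33 at 6 h of MeJA, and 2 at 1 h and 1 at 12 h of YE, with median ratios of 3.13, 2.68, 1.06 and 0.981. TAT1, tyrosine aminotransferase (SmiContig5984), had 877 RPKM at 1 h and 1130 at 6 h of MeJA, 242 at 1 h and 216 at 12 h of YE, and 223 in the control. Its MeJA ratios, 3.93 and 5.06, were below those of the CYP72A10 and CYP714A2 unigenes and above those of CYP72A15. HPPR1 (SmiContig6005) had ratios of 2.15 in MeJA-1h and 3.43 in MeJA-6h, and RAS1, rosmarinic acid synthase (c17386_Smj-1h_g1_i1), 1.49 and 2.10. The largest MeJA-1h ratios of the list were those of TAT2 unigenes SmiContig8005, 40.3 from 4 control reads (15.5 to 149), and c21289_Smj-1h_g1_i4, 9.98 from 11 control reads (5.62 to 21.3).

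The mevalonate route makes the precursors of triterpenes, and the paper states that tanshinones also derive partly from it. Taken here from the study's list of tanshinone pathway genes, it held 23 unigenes. Of these, 14 were over 2-fold above the control at 1 h and 4 at 6 h of MeJA, against 7.57% and 6.84% of all unigenes. With YE these were 20 at 1 h and 5 at 12 h, against 7.81% and 4.37%. HMGR2 (SmiContig32425), a form of the rate-limiting reductase of that route, had 543 RPKM at 1 h and 343 at 6 h of MeJA, 382 at 1 h and 265 at 12 h of YE, and 73.6 in the control. MDC (SmiContig6174), mevalonate diphosphate decarboxylase, had ratios of 5.52 in MeJA-1h (3.25 to 10.8) and 9.73 in YE-1h (5.85 to 18.7). It is a fragment of 362 bp with 14 control reads. In MeJA-6h the interval of MDC, at 1.32, included 1 (0.652 to 2.82). Of the P450 unigenes with a ratio, 0 of 10 were over 2-fold at either YE time, or 1, CYP72A15, in YE-12h after TMM scaling. This is near the shares of all unigenes, 7.81% in YE-1h and 4.37% in YE-12h, so no contrast with the mevalonate list is read from it.

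Likeness of pattern was measured as the root mean square difference of the 4 log2 ratios to the control, among 495 unigenes with an annotation in the study's lists. These lists held 375 transcription factors, which the study chose for a rise over 2-fold with MeJA or YE. For the CYP72A10 median the nearest were the bHLH unigenes c21928_Smj-1h_g1_i3 (0.51), SmiContig8278 (0.57) and c21928_Smj-1h_g1_i4 (0.66), from a family of transcription factors. In that order they had 37, 42 and 46 control reads, and the c21928 unigenes are isoforms of the same component by name. c21928_Smj-1h_g1_i3 had 39.3 RPKM at 1 h and 23.0 at 6 h of MeJA, 2.79 at 1 h and 2.43 at 12 h of YE, and 2.45 in the control, and 14 of 54072 unigenes compared lay nearer still. SmiContig8278 was also the nearest to CYP714A2, at 0.61 with 44 unigenes nearer, ahead of MYB SmiContig1859 (0.66) and c21928_Smj-1h_g1_i3 (0.72). SmiContig8278 had 15.9 RPKM in MeJA-6h and 30.0 in MeJA-1h, a larger gap between the MeJA times than in the CYP72A10 and CYP714A2 unigenes.

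CYP72A15 had the closest neighbours, with TCP SmiContig2016 at 0.17, CYP71B38 c22503_Sye-12h_g2_i1 at 0.32 and TCP c21690_Smj-1h_g1_i1 at 0.32. SmiContig2016 had 9.09 RPKM at 1 h and 11.4 at 6 h of MeJA, 1.88 at 1 h and 4.13 at 12 h of YE, and 2.88 in the control, and 2 unigenes lay nearer. Among the CYP716A1 unigenes, c21687_Smj-6h_g1_i1 was nearest to HPPR1 (0.26, 30 unigenes nearer), CYP83B1 SmiContig23569 (0.32) and TAT2 SmiContig12929 (0.37), and the study had listed it for co-expression with HPPR1. c22209_Smj-1h_g3_i5 was nearest to bHLH SmiContig29272 (0.29, 72 nearer), PAL3 SmiContig5613 (0.30) and C4H1 SmiContig7266 (0.32), PAL3 and C4H1 being enzymes of the phenylpropanoid entry. c23080_Smj-1h_g1_i1 was nearest to RAS4 c23133_Smj-1h_g1_i1 (0.37, 9 nearer), HB c22033_Smj-1h_g1_i2 (0.45) and bHLH SmiContig21819 (0.48), and SmiContig8892 to bHLH SmiContig12567 (0.39, 21 nearer), bHLH SmiContig8278 (0.48) and AP2-EREBP c21378_Smj-6h_g3_i5 (0.49). With 5 libraries and 1 control common to the 4 ratios, these are descriptions of shape.

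In their names, 4 of the 12 unigenes carry the MeJA-1h library, 4 MeJA-6h, 0 a YE library, 1 the control and 3 no library, while over all unigenes these were 5395, 4451, 8082, 4822 and 32838. The shortest sequences were the CYP716A1 fragment c23080_Smj-1h_g1_i1 and the CYP716A2 unigenes, at 398 to 563 bp, and the 12 ranged over 398 to 1811 bp.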

How the data were processed

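RNA was measured in 5 hairy root libraries, 1 per condition. The authors filtered reads with the NGS QC toolkit, built unigenes from them de novo with Trinity, and deposited whole-number counts per unigene, not normalized, and RPKM values scaled to unigene length and library reads. Bowtie is named by the study, and the counting program is not given in the sources used here. A protocol label speaks of retinas, at odds with the hairy root tissue label. Each library was made from mixed RNA. With 1 library per condition no test between conditions was possible, and no DESeq2 or edgeR test was run.

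The members were the P450 unigenes of families CYP72, CYP714 and CYP716 in the study's phenolic acid table, of which unigene names and annotations alone were taken. The members and the lists beside them were chosen with earlier results of these data known. Named were all 12 members, TAT1, HPPR1, RAS1, unigenes of the same families in the tanshinone list, the 3 nearest annotated unigenes per pattern (for the CYP72A10 median and members with at least 30 control reads), and 2 unigenes each of the phenolic acid and mevalonate lists with the largest MeJA-1h ratio. Exceptions are named in the text. None of the 12 matched the 42046 genes of the RefSeq table given, and no sequence is printed.

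Ratios of deposited RPKM were taken with Python 3.11.15, numpy 2.4.6, pandas 2.3.3 and scipy 1.17.1, with exact 95% intervals from the counts, and a library of at most 3 reads set to 3. Unigene lengths were computed from reads and RPKM. The ratio code was tested on simulated data. Alternatives were TMM (edgeR 4.0.16) and DESeq2 1.42.0 size factors in R 4.3.3, the ratio of counts, a pseudocount of 1 RPKM, RPKM below 1 set to 1, a floor of 1 read, a minimum of 30 summed reads, a length of at least 1000 bp, and 1 unigene per annotation or their sum.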

Additional observations from a re-analysis of the deposited data

Results flagged for a closer look

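Of the 10 unigenes with a ratio in every comparison, 5 had both MeJA libraries above the control and both YE libraries below it, against 3.47% of all unigenes. With 1 library per condition this difference was not tested, all 4 ratios share the control, and the unigenes had been listed from these values. Among the 5 are the 4 CYP72A10 unigenes, which may share reads. The mean log2 ratio with MeJA minus that with YE was 4.30 for CYP72A10 c16024_Smj-1h_g1_i1, 4.22 for CYP72A10 SmiContig11632, 4.15 for CYP72A10 c17493_Smj-0h_g1_i1, 3.70 for CYP72A10 SmiContig31869 and 3.24 for CYP716A1 c23080_Smj-1h_g1_i1. The YE-1h interval of c23080_Smj-1h_g1_i1 included 1 (0.367 to 1.04), while both YE intervals of the 4 CYP72A10 unigenes lay below 1, at most 0.959. After TMM scaling the YE-12h intervals of c17493_Smj-0h_g1_i1 (0.762 to 1.07) and SmiContig31869 (0.758 to 1.06) included 1, with ratios of 0.902 and 0.895.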

How the results depend on the processing

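No paired analysis was possible because each condition has 1 library, and leaving out a library removes its condition. With 1 unigene per annotation, and with each annotation summed, 5 of 5 annotations were over 2-fold in MeJA-1h and 5 of 5 in MeJA-6h. The median log2 ratio in MeJA-1h was 2.60 with RPKM below 1 set to 1 and 2.31 with a pseudocount of 1, and in MeJA-6h 2.64 and 2.37. With TMM or DESeq2 scaling, 1 unigene (CYP72A15) was over 2-fold in YE-12h, and 0 were below 0.5 there. That count was also 0 with the pseudocount, with annotations summed and with unigenes of at least 1000 bp. The median in YE-12h was 0.10 with 1 unigene per annotation and 0.27 with annotations summed, against -0.25. Unigenes higher in MeJA-6h than in MeJA-1h numbered 1 with 1 unigene per annotation, 2 when summed and 3 at 1000 bp or more. The median log2 ratio of YE-12h to YE-1h was 0.79 and 0.91 with 1 unigene per annotation and summed, and that of MeJA-1h to YE-1h was 3.02 with RPKM below 1 set to 1 and 2.64 with the pseudocount. Of 44 single ratios to the control, TMM and DESeq2 scaling each moved 13 beyond their counting interval, setting RPKM below 1 to 1 moved 4 and the pseudocount moved 4. The ratio of c21687_Smj-6h_g1_i1 in YE-1h, 0.999, passed to the other side of 1 with TMM, with DESeq2 and as a ratio of counts, and no other did. The counting interval changed its relation to 1 under TMM for 2 ratios to the control in YE-12h and 1 in YE-1h, and for 1 ratio of MeJA-1h to YE-1h. No called ratio reversed, and the causes of these shifts were not tested beyond what each setting does by construction. Depth limits c23080_Smj-1h_g1_i1 outside MeJA and the CYP716A2 unigenes throughout.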
